A study of Mus musculus with 24 samples.

Results

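The 9 genes described here, Dntt, Rag1, Rag2, Il7r, Igll1, Vpreb1, Ebf1, Pax5 and Cd79a, belong to the early lymphoid and B-cell programme of blood formation. They were taken by name from a table of read counts for 55487 mouse genes, and each of the 9 was found and passed the filter on low counts. These genes and the gene lists below were chosen with earlier results of these data known. Counts of calls set beside the share over all genes are therefore not independent of that choice. Dntt was included for its high level after birth and Igll1 for its lower level with the leukaemia fusion MLL::ENL at 4 weeks, so these patterns, and Igll1 in any comparison with a fusion group at that age, are described below without a test. The study concerns protection of fetal blood cells from this fusion and the role of MLL3 in it. The data were bulk RNA-seq counts from 24 libraries in 6 groups of 4, and the design text calls the 4 of each group biological replicates.

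Newborn liver, at postnatal day 0 (P0), gave a wild-type group (P0 WT) and a group with human MLL::ENL as a Tet-off transgene (ME), in which a gene is switched on by withdrawal of tetracycline or a relative, with induction in the embryo at E10.5, named by embryonic day (P0 ME). Bone marrow at postnatal day 28 (P28) gave a wild-type group (P28 WT), groups in which induction was at E10.5 or P0, and a group induced at E10.5 whose label adds "RLT Vav Txp" and does not expand it. The sample labels name the cells LSK, the lineage-negative, Sca-1-positive, KIT-positive fraction rich in blood stem and early progenitor cells, while the design text describes a sort on absent lineage markers and KIT. The strain, the driver of the tetracycline transactivator and the number of animals behind each library are not given in the sources used here. Each liver group was newborn and each marrow group was 4 weeks old, so age and tissue cannot be told apart.

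A B cell is assembled in steps. Early lymphoid progenitors switch on the recombinase RAG1/RAG2, which cuts the antigen receptor genes, and terminal deoxynucleotidyl transferase (TdT, from Dntt), which adds untemplated bases at the cut ends. TdT is known to be scarce in fetal and abundant in adult lymphocyte development. Signals through the interleukin-7 receptor (Il7r) and the transcription factors EBF1 and then PAX5 commit the cell to the B lineage. The first immunoglobulin heavy chain is displayed with a surrogate light chain made of VPREB1 and IGLL1 (lambda 5) and signals through CD79A.

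On the GRCm38 build with GENCODE M21 annotation, Dntt lies on chromosome 19 from 41029275 to 41059525, Il7r on chromosome 15 from 9505788 to 9530176, Ebf1 on chromosome 11 from 44617317 to 45008091, Pax5 on chromosome 4 from 44524757 to 44710487 and Cd79a on chromosome 7 from 24897381 to 24902197. Rag1 (chromosome 2, 101638282 to 101649501) and Rag2 (101624718 to 101632529) are neighbours 5.8 kb apart. Igll1 (chromosome 16, 16860671 to 16863985) and Vpreb1 (16868403 to 16870843) are neighbours 4.4 kb apart. Exons of another gene cover 9.01% of the Vpreb1 exon bases (Top3b), 6.07% of those of Rag2 and 1.21% of those of Rag1 (B230118H07Rik), and at most 7.18% of those of Pax5 (5730488B01Rik). Vpreb1 also has a near-identical copy, Vpreb2, and the strand setting and the treatment of reads with several matches are not given in the sources used here, so its level is less certain than that of the others.

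The start-site regions of 4 of the genes are shown because these genes moved in opposite directions between the groups: Dntt was high in the marrow groups, and Igll1, Vpreb1 and Cd79a were high in most newborn liver libraries. Each is the RefSeq sequence on GRCm38.p6 from 250 bases before to 50 bases after an annotated start, with matches to the motifs searched in capitals.
Dntt (chr19:41029025-41029324, + strand): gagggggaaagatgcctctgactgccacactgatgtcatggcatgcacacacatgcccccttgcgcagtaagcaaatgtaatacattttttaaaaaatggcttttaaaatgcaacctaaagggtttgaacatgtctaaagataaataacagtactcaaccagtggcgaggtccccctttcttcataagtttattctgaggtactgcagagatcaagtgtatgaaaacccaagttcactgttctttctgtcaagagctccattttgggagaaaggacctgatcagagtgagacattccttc
Igll1 (chr16:16863936-16864235, - strand): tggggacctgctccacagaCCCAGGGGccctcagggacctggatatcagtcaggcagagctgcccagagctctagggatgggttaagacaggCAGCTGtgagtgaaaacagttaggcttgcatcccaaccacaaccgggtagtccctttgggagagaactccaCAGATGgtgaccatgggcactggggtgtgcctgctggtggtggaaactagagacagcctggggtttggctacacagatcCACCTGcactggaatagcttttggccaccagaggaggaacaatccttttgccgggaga
Vpreb1 (chr16:16869206-16869505, - strand): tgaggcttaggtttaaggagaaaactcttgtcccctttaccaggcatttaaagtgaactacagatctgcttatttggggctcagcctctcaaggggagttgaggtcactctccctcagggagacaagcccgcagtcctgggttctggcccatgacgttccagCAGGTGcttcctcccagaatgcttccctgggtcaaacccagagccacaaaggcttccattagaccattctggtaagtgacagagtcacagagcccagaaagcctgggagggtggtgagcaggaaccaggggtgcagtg
Cd79a (chr7:24897247-24897546, + strand): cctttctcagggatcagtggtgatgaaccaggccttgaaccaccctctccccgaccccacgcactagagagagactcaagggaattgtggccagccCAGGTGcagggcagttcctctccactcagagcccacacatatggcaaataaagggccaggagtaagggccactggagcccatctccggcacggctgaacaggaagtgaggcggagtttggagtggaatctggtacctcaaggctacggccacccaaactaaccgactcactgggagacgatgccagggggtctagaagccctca
The capitals mark an E-box (CANCTG, the kind of site bound by E2A, with matches that begin 158, 87 and 8 bases before the Igll1 start, 88 bases before that of Vpreb1 and 154 bases before that of Cd79a) and the core of an EBF1 site (CCCNNGGG, beginning 231 bases before the Igll1 start). Both strands were searched, and no match overlapped another motif in these 4 regions. The Ikaros core (TGGGAA) and a TATA box (TATAAA) were searched too and had no match in these 4 sequences. Over the 10 RefSeq promoters of the 9 genes, the E-box was present in 6, the Ikaros core in 2, the EBF1 core in 1 and the TATA box in 0. Among all 32851 promoters of that length, 51.4% held the E-box, 25.6% the Ikaros core, 13.7% the EBF1 core and 13.6% the TATA box. The Dntt sequence held none of the 4 motifs, which says only that these letters are not in this window.

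Values below are TMM-normalised CPM, read counts scaled to library size, from libraries of 31233688 to 89774511 counts, so that 1 CPM stood for 31.2 reads in the smallest library. Changes are log2 fold changes from the edgeR quasi-likelihood model on all 24 libraries, and calls are made where the p, adjusted by Benjamini-Hochberg over 23059 genes, is under 0.05. In bulk RNA, fewer cells of a type and less RNA per cell cannot be told apart.

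The libraries differed in RNA of other blood cells, and this touches most results below. In the P0 libraries numbered 2 to 4 of both genotypes, 7 neutrophil genes summed to between 10601 and 36465 CPM, against 754 CPM in P0 WT library 1 and 711 CPM in P0 ME library 1. Erythroid genes summed to between 4231 and 14594 CPM in those 6 libraries, against 285 and 80.4 CPM in the libraries numbered 1, and macrophage genes to between 1256 and 1746 CPM against 129 and 121 CPM. P0 WT library 1 stood apart in another way, with 10684 CPM of mast cell or basophil genes, against 923 to 2100.3 CPM in the other P0 WT libraries. P0 ME libraries 1 to 4 held 47.6, 246, 815 and 204 CPM of these genes, each below every P0 WT library. At P28 the RLT Vav Txp libraries held 702 to 3010.3 CPM of macrophage genes against 73.4 to 109 CPM in P28 WT, 1795 to 6006 CPM of neutrophil genes against 492 to 740.2 CPM, 979 to 2029 CPM of erythroid genes against 281 to 407 CPM, and 75.0 to 189 CPM of mast cell or basophil genes against 7.89 to 31.6 CPM. E10.5-induced marrow held 858 to 1598 CPM of neutrophil genes and 105 to 124 CPM of T-cell genes, the latter against 68.1 to 99.7 CPM in P28 WT. T-cell genes were uneven in the RLT Vav Txp group, at 41.1 to 223 CPM. P0-induced marrow held 111 to 124 CPM of erythroid genes, less than P28 WT. Macrophage genes, at 47.2 to 73.0 and 46.2 to 60.9 CPM after E10.5 and P0 induction, were below each P28 WT library. The 5 genes of the sorted population, Kit and Ly6a among them, were detected in every library. They summed to 1254 to 1871 CPM in the RLT Vav Txp group against 2166 to 2449.8 CPM in P28 WT. In liver the sums for libraries 1 to 4 were 2698, 1452, 1869.7 and 1195 CPM in P0 WT. They were 2209.8, 987, 1728 and 985 CPM in P0 ME, so the library numbered 1 was the highest of each newborn group. In the RLT Vav Txp group against P28 WT the 5 genes moved differently. Slamf1 was higher (2.25, edgeR adjusted p = 0.00573) and Cd34 lower (-1.25, edgeR adjusted p = 4.07e-04). Kit (0.23), Procr (0.03) and Ly6a (-0.61) were not called. Results that rest on the P0 libraries are therefore given with all of them and by library number. The part of other cells in the results of the marrow groups was not tested.

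**Figure D1:**
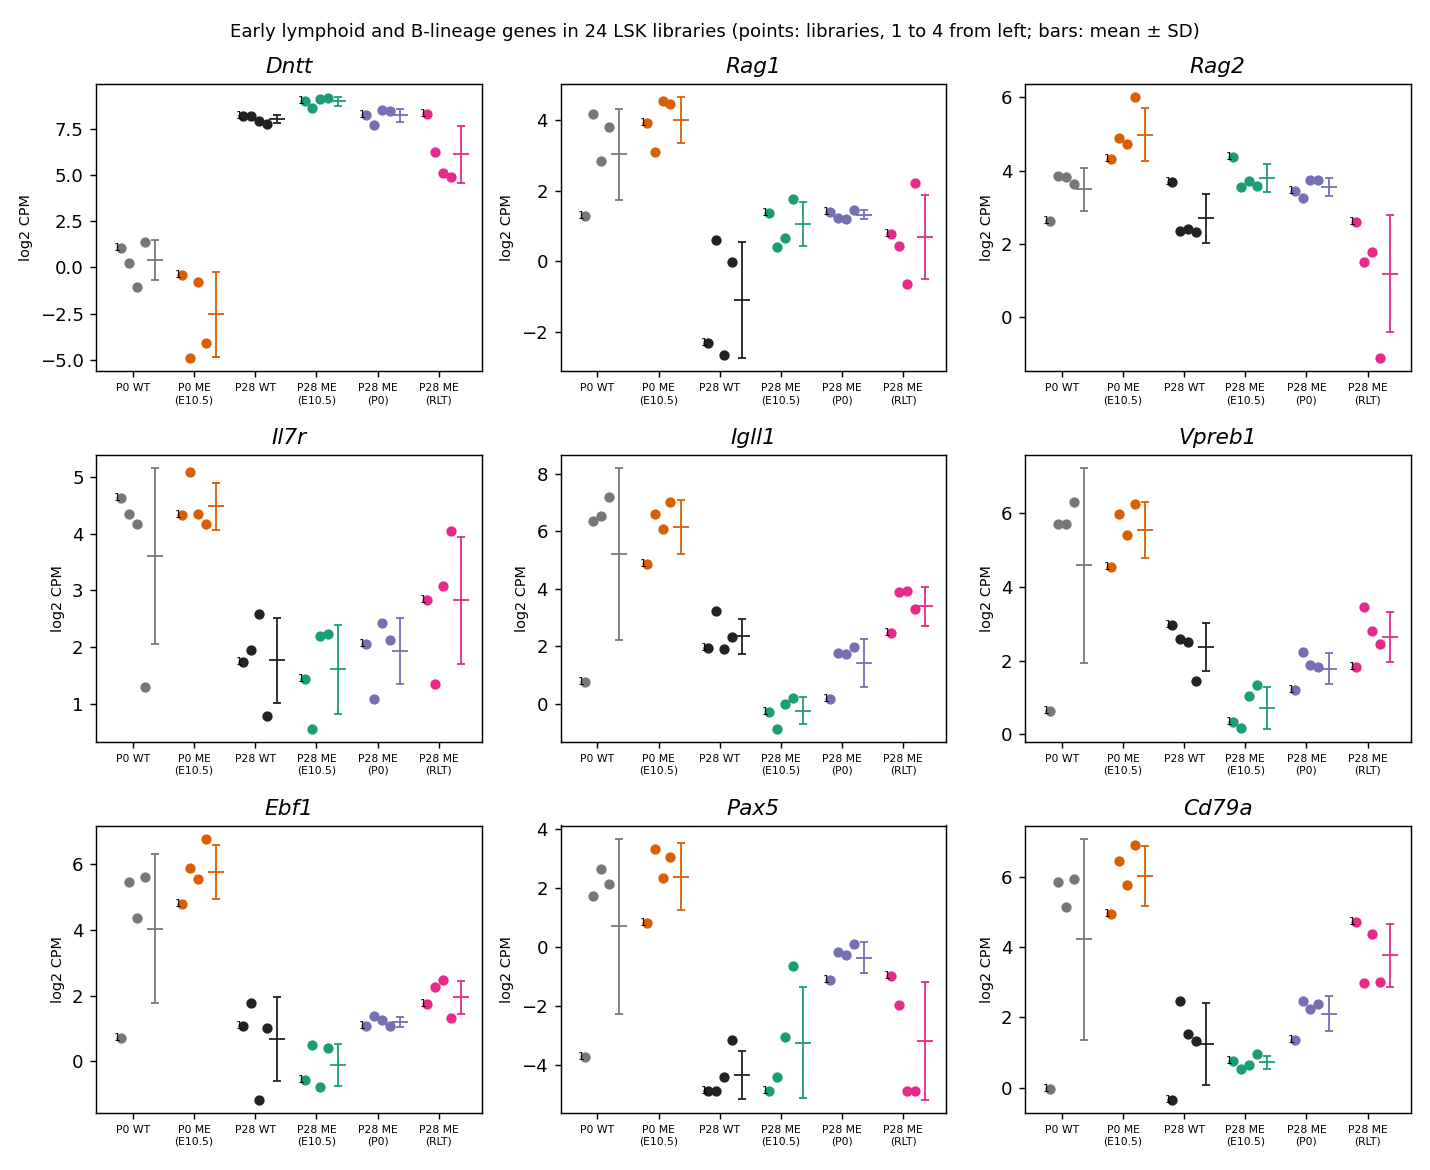
Level of each of the 9 genes in every library as log2 CPM (prior count 2) on the vertical axis, with the 6 groups along the horizontal axis. Points are libraries, those numbered 1 are marked, and bars give the mean ± SD of 4. Dntt is high in the marrow groups, while Igll1, Vpreb1, Ebf1, Pax5 and Cd79a are high in the P0 libraries other than P0 WT library 1.

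Dntt was almost silent in newborn liver and abundant in marrow. In P0 WT, libraries 1 to 4 gave 2.01, 1.13, 0.455 and 2.61 CPM, and the P0 ME libraries gave 0.727, 0, 0.547 and 0.0247 CPM. Marrow of WT mice gave 291, 294, 247 and 217 CPM. Every marrow library of the study was above every liver library, and in P28 WT the mean was 262 ± 37.2 CPM (SD, n = 4) against 1.55 ± 0.949 CPM in P0 WT. Marrow with the fusion induced at E10.5 gave 511, 389.7, 558 and 582 CPM, above each P28 WT library, and marrow induced at P0 gave 308, 206, 364 and 346 CPM, which overlapped P28 WT. The RLT Vav Txp libraries were uneven, at 310.2 CPM in library 1 and 75.8, 34.1 and 29.2 CPM in libraries 2 to 4. In order of the means, P28 ME (E10.5) at 510.3 CPM came first, followed by P28 ME (P0) at 306, P28 WT at 262, RLT Vav Txp at 112, P0 WT at 1.55 and P0 ME at 0.325 CPM. The ranges of neighbours in that order overlapped except between the E10.5-induced and P0-induced groups and between the RLT Vav Txp group and P0 WT. Between E10.5-induced and P0-induced marrow, 11.8% of all genes had ranges that did not overlap.

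As a description of the pattern for which it was included, Dntt was higher in P28 WT than in P0 WT by 7.42 on the log2 scale, and higher in E10.5-induced marrow than in P0 ME liver by 10.53, the latter against libraries of 0 to 47 counts. With only the P0 libraries numbered 1 these differences were 7.08 and 9.52.

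The recombinase genes did not follow Dntt between liver and marrow. Rag1 was highest in P0 ME (15.1, 8.51, 23.1 and 21.8 CPM) and P0 WT (2.41, 18.1, 7.18 and 13.9 CPM). It was lowest in P28 WT, at 0.168, 1.48, 0.125 and 0.959 CPM. The transgenic marrow groups averaged between 2.06 and 2.48 CPM, and the P28 libraries lay below the P0 libraries apart from P0 WT library 1, which was within the range of the fusion groups at P28. Rag2 was flatter, at 6.16, 14.6, 14.1 and 12.5 CPM in P0 WT, while P28 WT gave 12.8, 5.11, 5.28 and 5.03 CPM. It reached 19.9, 29.6, 26.3 and 64.9 CPM in P0 ME, all 4 above the P0 WT range. E10.5-induced marrow gave 20.7, 11.8, 13.2 and 12.0 CPM, P0-induced marrow 9.51 to 13.5 CPM, and the RLT Vav Txp libraries the lowest values, 5.99, 2.80, 3.39 and 0.431 CPM. Scaled by length (CPM per kilobase of exon), Rag2 stood above Rag1 in every group, at 2.06 against 0.103 length-scaled CPM in P28 WT and 10.3 against 2.59 in P0 ME.

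Il7r, the receptor chain that carries the interleukin-7 signal, gave 24.6, 20.3, 17.9 and 2.41 CPM in P0 WT, while P0 ME gave 19.9, 33.9, 20.3 and 18.0 CPM. The marrow groups of WT, E10.5-induced and P0-induced mice lay between 1.44 and 5.93 CPM, and the RLT Vav Txp libraries between 2.52 and 16.5 CPM. For Il7r, P0 WT library 1 was the highest of its group and library 4 the low one, the reverse of the layout of the B-cell genes below.

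The 2 parts of the surrogate light chain varied together. Igll1 in P0 WT was at 1.65, 81.4, 93.3 and 147 CPM, while P0 ME gave 28.6, 97.6, 67.7 and 129 CPM. Vpreb1 in P0 WT was at 1.51, 51.9, 51.9 and 79.9 CPM, while P0 ME gave 23.1, 63.5, 42.7 and 76.0 CPM. P0 WT library 1 was thus far below the other newborn libraries, while P0 ME library 1, as low as it in neutrophil and erythroid genes, held 28.6 CPM of Igll1 and 23.1 CPM of Vpreb1. In P28 WT, Igll1 gave 3.83, 9.27, 3.72 and 4.89 CPM and Vpreb1 7.80, 5.95, 5.64 and 2.69 CPM. E10.5-induced marrow had the lowest Igll1, at 0.789, 0.514, 0.943 and 1.12 CPM, with P0-induced marrow at 1.09, 3.36, 3.24 and 3.91 CPM and the RLT Vav Txp group at 5.43, 14.6, 15.2 and 9.73 CPM. Across the 16 marrow libraries the Pearson correlation of log2 CPM between Igll1 and Vpreb1 was 0.88, and across the 8 liver libraries it was 1.00, a description of libraries that share group, depth and content of other cells. Per kilobase of exon both parts stood at like levels in liver (37.3 for Igll1 and 38.6 for Vpreb1 in P0 WT), whereas in E10.5-induced marrow Igll1 was at 0.389 and Vpreb1 at 1.42 length-scaled CPM.

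The commitment factors and the receptor gene showed the same layout. Ebf1 gave 1.61, 43.6, 20.7 and 48.6 CPM for P0 WT, 27.6, 59.3, 47.0 and 109.6 CPM in the P0 ME libraries, and between 0.412 and 5.46 CPM in every marrow library. Cd79a in P0 WT was at 0.946, 58.1, 35.3 and 61.9 CPM, while P0 ME gave 30.7, 87.9, 54.5 and 119.5 CPM. P0 WT library 1 again read at the marrow level for both genes. In marrow, Cd79a was at 0.755, 5.48, 2.83 and 2.47 CPM in WT, 1.66, 1.41, 1.53 and 1.92 CPM after E10.5 induction, 2.53, 5.47, 4.67 and 5.14 CPM after P0 induction and 26.2, 7.82, 20.6 and 8.07 CPM in the RLT Vav Txp group. The RLT Vav Txp range for Cd79a overlapped none of the other marrow groups. Pax5 was the scarcest of the 9 per kilobase of exon in every marrow group. Its CPM were 0.0402, 3.28, 6.21 and 4.31 for P0 WT and 1.72, 9.96, 4.99 and 8.22 for P0 ME, and P28 WT libraries held 0 to 5 counts. P0-induced marrow held 24 to 51 Pax5 counts per library and lay above every P28 WT library. In the order of the 6 group means, neighbouring groups overlapped in range for these 8 genes, apart from P0 ME and RLT Vav Txp for Igll1 and RLT Vav Txp and P28 ME (P0) for Cd79a.

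Comparing 4-week marrow with newborn liver in wild-type mice asked how the programme stood at the 2 ages. Of the 8 genes tested (Dntt aside), 7 were lower in marrow and 0 higher, where 7.68% of all genes were called in this comparison. The 7 include Igll1, which was at -3.90 in log2. Its level in P28 WT was part of the pattern for which it was included, so its call is not independent of that choice. Ebf1 fell by 3.89 (SE 0.71, edgeR adjusted p = 0.00148) and Cd79a by 3.76 (SE 0.80, edgeR adjusted p = 0.00582). Rag1 fell by 3.95 (SE 0.73, edgeR adjusted p = 0.00119). Vpreb1 fell by 3.07 and Il7r by 2.14, and Pax5, which fell by 6.95 (SE 1.58), was measured against 0 to 5 counts in P28 WT. The ranges of the 2 groups did not overlap for Rag1, 1 of the 8, where 9.27% of all genes had ranges that did not overlap. Rag2 was not called, at -0.75 (95% interval -1.74 to 0.24, edgeR adjusted p = 0.392). With P0 WT library 1 alone on the newborn side, a fit that assumes the lone library varies like the other groups, 1 of the 8 was called, Il7r at -2.68 (edgeR adjusted p = 0.0342), and Igll1, Vpreb1, Ebf1 and Cd79a were not called, at 1.76, 1.92, 0.32 and 1.65. With P0 libraries 2 to 4 alone, 7 were called, Igll1 counted. Il7r was not called without P0 WT library 2 or without P28 WT library 1, 2 or 4 (edgeR adjusted p up to 0.0685). Limma called 3 of the 8, and a fit of just these 2 groups called 2.

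The same comparison was made in mice with the fusion induced at E10.5. Of the 7 genes other than Dntt and Igll1, 6 were lower in marrow than in P0 ME liver, where 18.2% of all genes were called in this comparison. Ebf1 fell by 5.99 (SE 0.78, edgeR adjusted p = 2.83e-05), Cd79a by 5.49 (SE 0.87, edgeR adjusted p = 2.70e-04) and Vpreb1 by 4.91 (SE 0.73, edgeR adjusted p = 1.14e-04). Pax5 fell by 5.19, Rag1 by 2.97 and Il7r by 2.79. For these 6 genes no E10.5-induced marrow library reached the lowest liver library, where 25.4% of all genes had ranges that did not overlap. Igll1, untested here, was at -6.59. Rag2 was at -1.29 (95% interval -2.28 to -0.29, edgeR adjusted p = 0.0639), and was called without P0 ME library 1 (-1.48, edgeR adjusted p = 0.0405), by DESeq2 (-1.36, adjusted p = 0.0222) and by limma (-1.02, adjusted p = 0.00944). A further fit had P0 ME library 1 alone as the newborn side, again assumed to vary like the other groups. Igll1 was then at -5.02, Ebf1 at -4.78, Cd79a at -4.17 and Vpreb1 at -3.69. Pax5 was at -3.23, Rag1 at -2.71, Il7r at -2.51 and Rag2 at -0.40. The part of other cells in these values was not tested.

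**Figure D2:**
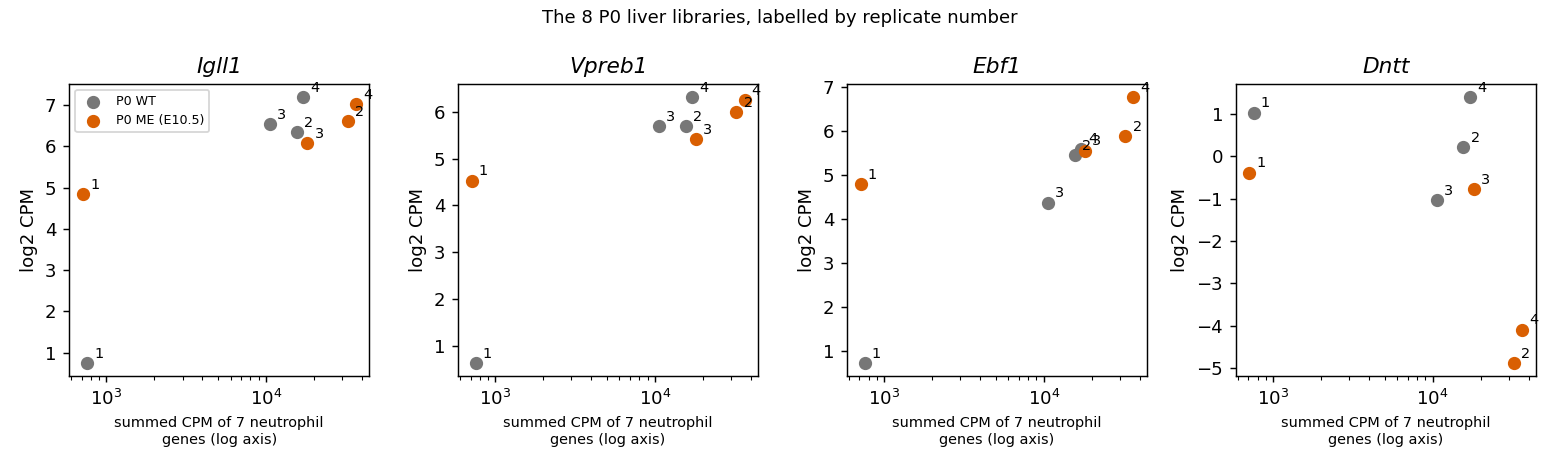
Log2 CPM of Igll1, Vpreb1, Ebf1 and Dntt in the 8 newborn liver libraries (vertical axis) against the summed CPM of 7 neutrophil genes (horizontal, log axis), with points numbered by library. P0 WT library 1 and P0 ME library 1 have 754 and 711 CPM of neutrophil genes, with Igll1 at 1.65 CPM in the former and 28.6 CPM in the latter. The former also has 10684 CPM of mast cell or basophil genes, against 47.6 CPM in the latter. The part of other cells in these levels was not tested.

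Whether the difference between ages depended on the fusion was tested as an interaction, the effect of the fusion at P28 minus its effect at P0. Of the 7 genes tested (without Dntt and Igll1), 0 were called by edgeR, where 0.720% of all genes were called in this comparison. DESeq2 and limma also called 0, and 1 had an unadjusted p under 0.05. Ebf1 was at -2.10 (95% interval -4.00 to -0.20, edgeR adjusted p = 0.250) and Vpreb1 at -1.84 (95% interval -3.69 to 0.01, edgeR adjusted p = 0.305). With the P0 libraries numbered 1 alone, 3 of the 7 were called, Vpreb1 at -5.61 (edgeR adjusted p = 0.00696), Cd79a at -5.82 (0.0227) and Ebf1 at -5.10 (0.0415), a contrast with 1 library in each newborn group, whose spread is taken from the marrow groups alone. Cd79a over all libraries was at -1.73 (95% interval -3.88 to 0.43).

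In newborn liver the fusion left the 9 genes without a call. Of 9 tested, 0 were called by edgeR, where 0.642% of all genes were called in this comparison, and 2 had an unadjusted p under 0.05, Rag2 and Dntt. Rag2 was 1.57 higher in P0 ME in log2 (SE 0.49, edgeR adjusted p = 0.134), with all 4 P0 ME libraries above the P0 WT range, where 3.74% of all genes had ranges that did not overlap, and DESeq2 called it (1.59, DESeq2 adjusted p = 0.03). Limma called 0. Dntt was at -2.15 (95% interval -3.92 to -0.38, edgeR adjusted p = 0.252) at levels of under 3 CPM, and Igll1 at -0.00 (95% interval -1.49 to 1.48, edgeR adjusted p = 1.00). Between the 2 libraries numbered 1, a comparison of 1 library with 1 library, Igll1, Vpreb1 and Cd79a were higher in P0 ME by 4.11, 3.93 and 5.02. Their edgeR adjusted p of 0.027, 0.0274 and 0.0263 take the spread wholly from the marrow groups and compare these libraries, not the genotypes. Between the libraries numbered 2 to 4 none of the 9 was called. P0 WT library 1 is also the library with the most mast cell RNA. Mast cell or basophil genes summed to 47.6 to 815 CPM in P0 ME and 923 to 10684 CPM in P0 WT, without overlap. The part of such cells in the differences between the newborn groups was not tested.

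In marrow, E10.5 induction was set against WT. Of the 8 genes tested (Igll1 aside), 0 were called by edgeR, where 12.3% of all genes were called in this comparison, and 3 had an unadjusted p under 0.05. These were Rag1 at 1.70 (95% interval 0.31 to 3.09, edgeR adjusted p = 0.0993), Rag2 at 1.03 (0.04 to 2.03, edgeR adjusted p = 0.169) and Vpreb1 at -1.69 (-3.04 to -0.35, edgeR adjusted p = 0.0914). DESeq2 called 1 of the 8, Vpreb1 (-1.77, DESeq2 adjusted p = 0.0403). Limma called 2, Dntt (0.92, limma adjusted p = 0.00468) and Rag2 (1.17, limma adjusted p = 0.0171). A fit by edgeR of just these groups called 3. These were Dntt (0.88, edgeR adjusted p = 1.84e-04), Vpreb1 (-1.77, edgeR adjusted p = 0.00329) and Rag2 (0.95, edgeR adjusted p = 0.0341). For Dntt the edgeR value over all libraries was 0.96 (95% interval -0.47 to 2.39, edgeR adjusted p = 0.398), although the 4 libraries after E10.5 induction, at 389.7 to 582 CPM, lay above the P28 WT range of 217 to 294 CPM. In this comparison 28.2% of all genes had ranges that did not overlap. Igll1, described without a test, averaged 0.842 ± 0.257 CPM (SD, n = 4) against 5.43 ± 2.62 CPM in P28 WT, a log2 fold change of -2.69, and the ranges did not overlap. Among the genes without a call, the estimates were negative for Vpreb1, Ebf1 (-1.01), Cd79a (-0.82) and Il7r (-0.15) and positive for Dntt, Rag1, Rag2 and Pax5.

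P0 induction against WT in marrow also gave 0 of 8 called by edgeR, where 1.57% of all genes were called in this comparison, and 2 had an unadjusted p under 0.05. Pax5 was at 4.79 (SE 1.47, edgeR adjusted p = 0.0736) from 24 to 51 counts per library against 0 to 5, and was called by DESeq2 (4.89, DESeq2 adjusted p = 0.00861) and limma (4.90, limma adjusted p = 0.0347). Rag1 was at 1.87 (95% interval 0.48 to 3.27, edgeR adjusted p = 0.120), was higher in all 4 libraries than in any WT library (24.8% of all genes had ranges that did not overlap), and was the other gene called by DESeq2 (1.81, adjusted p = 0.0481) and limma (2.43, adjusted p = 0.0495). Dntt was at 0.22 (95% interval -1.20 to 1.64) and Igll1, untested, at -0.90. P0 induction against E10.5 induction gave 0 of 8 called by edgeR (Igll1 aside), where 0.0477% of all genes were called in this comparison, and 0 had an unadjusted p under 0.05. The ranges did not overlap for 3 of the 8, Dntt, Ebf1 and Cd79a, where 11.8% of all genes had ranges that did not overlap. Igll1, untested, was at 1.79. DESeq2 called 0 and limma 2, Dntt (-0.73, limma adjusted p = 0.00591) and Pax5 (4.11, limma adjusted p = 0.0139), and edgeR on just these 2 groups called 2, Ebf1 and Cd79a.

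**Figure D3:**
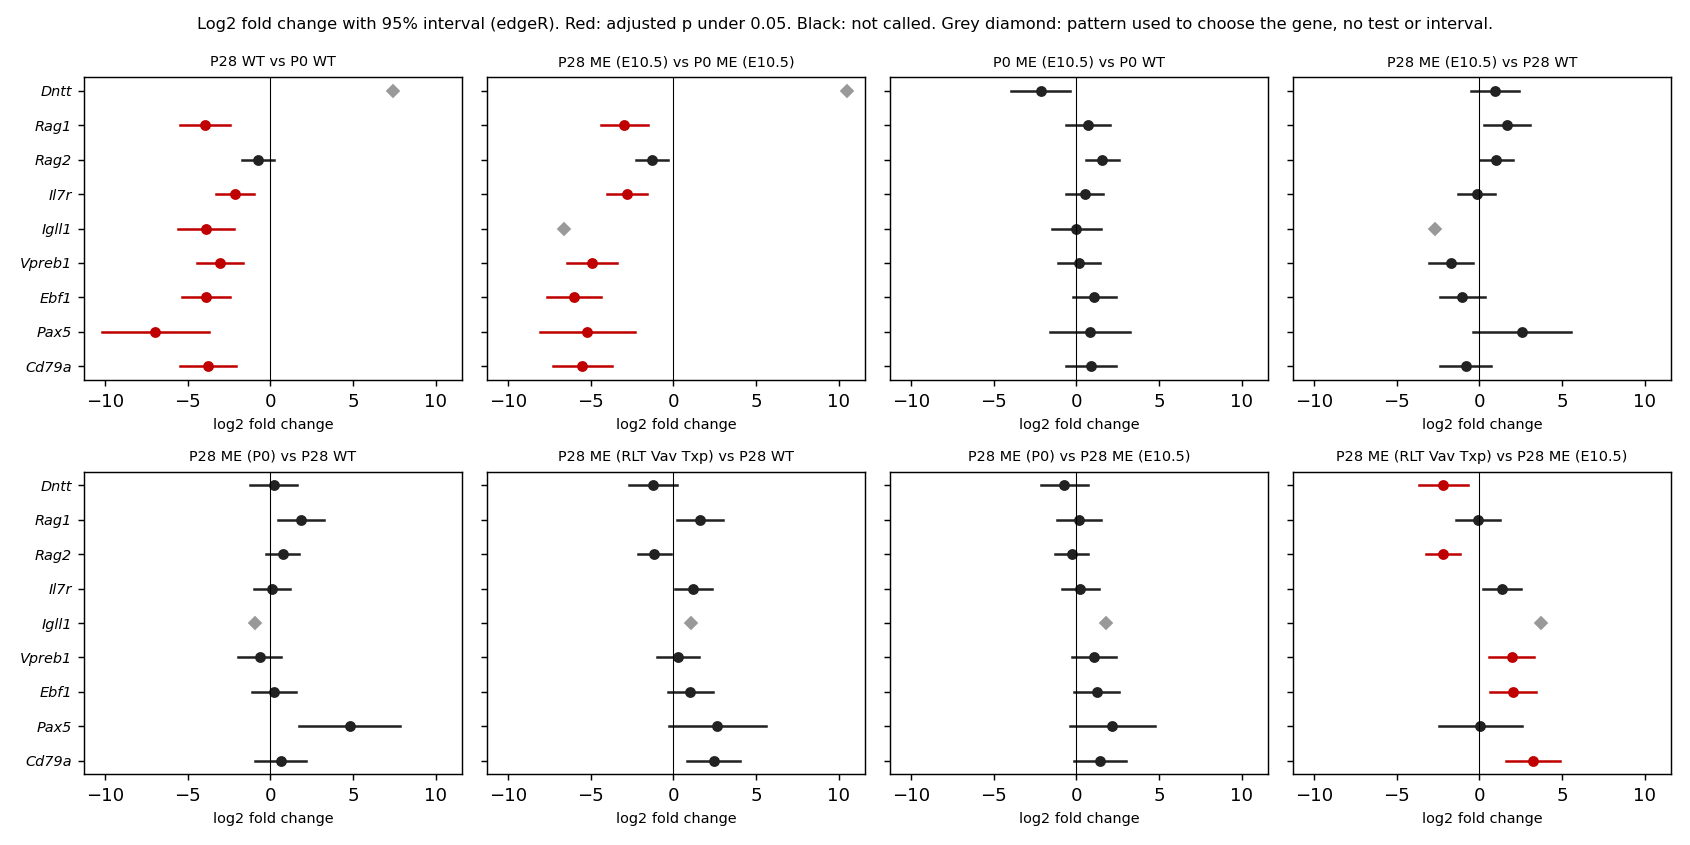
Log2 fold change of each gene (horizontal axis) with its 95% interval in 8 comparisons between groups. Red points have an edgeR adjusted p under 0.05, black points do not, and grey diamonds are patterns for which the gene was included, shown without an interval. Calls appear in the 2 comparisons of marrow with liver and in the comparison of the RLT Vav Txp group with E10.5-induced marrow.

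E10.5-induced marrow shares its time of induction with the RLT Vav Txp group and was set against it. Of the 8 genes other than Igll1, 3 were higher and 2 lower, where 17.9% of all genes were called in this comparison. Higher were 2 pre-B receptor genes and a commitment factor: Cd79a rose by 3.27 (SE 0.79, edgeR adjusted p = 0.00796), Ebf1 by 2.05 (SE 0.67, edgeR adjusted p = 0.0370) and Vpreb1 by 1.98 (SE 0.65, edgeR adjusted p = 0.0391). Lower were Rag2, which fell by 2.19 (SE 0.50, edgeR adjusted p = 0.00426), and Dntt, which fell by 2.18 (SE 0.71, edgeR adjusted p = 0.0390). For each of these 5 the 4 RLT Vav Txp libraries and the 4 E10.5-induced libraries did not overlap, where 25.7% of all genes had ranges that did not overlap. Igll1, untested, was at 3.75. Il7r was at 1.37 (95% interval 0.24 to 2.51, edgeR adjusted p = 0.0857), Rag1 at -0.09 and Pax5 at 0.07, and these were not called. Cd79a and Rag2 were called in each of the 8 fits that left out 1 library. Of those fits, Dntt, Ebf1 and Vpreb1 were called only in the one without RLT Vav Txp library 1, where Dntt was at -3.46. The number called was 2 without any 1 of the 4 E10.5-induced libraries or without RLT Vav Txp library 3 or 4, 3 without its library 2 (where Il7r was called as well), and 2 when no filter on low counts was used. Dntt was also not called in a fit of just these groups (-2.13, edgeR adjusted p = 0.0877), and Ebf1 was not called by limma (2.31, limma adjusted p = 0.0505).

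Against P28 WT the RLT Vav Txp group had 0 of 8 genes called by edgeR, where 4.12% of all genes were called in this comparison, and 4 had an unadjusted p under 0.05, Rag1 (1.61), Rag2 (-1.16), Il7r (1.22) and Cd79a. Cd79a was at 2.44 (95% interval 0.86 to 4.03, edgeR adjusted p = 0.0818), with 4 libraries above the WT range (11.5% of all genes had ranges that did not overlap), and DESeq2 called it (2.42, DESeq2 adjusted p = 0.0175). Dntt was at -1.22 (95% interval -2.66 to 0.22, edgeR adjusted p = 0.447), and without RLT Vav Txp library 1, the one at 310.2 CPM, it was called at -2.50 (edgeR adjusted p = 0.0283). Limma, which weights libraries by quality, called Dntt and no other of the 8 (-2.07, limma adjusted p = 7.73e-04). Library 1 was also the RLT Vav Txp library with the most macrophage RNA (3010.3 CPM), the most Cd79a (26.2 CPM) and the least Igll1 (5.43 CPM). It held 223 CPM of T-cell genes as well, against 41.1, 89.9 and 46.2 CPM in libraries 2 to 4. The part of other cells in its Dntt level was not tested.

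Within the marrow libraries Dntt and Rag2 varied together. Over the 16 marrow libraries the Pearson correlation of log2 CPM was 0.87 between Dntt and Rag2 and 0.04 between Dntt and Rag1. Dntt correlated at -0.76 with Igll1, whose lower level in fusion marrow was the reason to include it. That value is not independent of the choice. With the other genes Dntt correlated at -0.62 for Vpreb1, -0.60 for Cd79a, -0.58 for Ebf1, -0.47 for Il7r and 0.31 for Pax5. Over the 8 liver libraries Dntt and Rag2 correlated at -0.81, at Dntt levels of 0 to 156 counts. These are descriptions of libraries that share groups, depth and other cells, and the RLT Vav Txp group supplies the lowest Dntt and Rag2 values of the marrow.

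**Figure D4:**
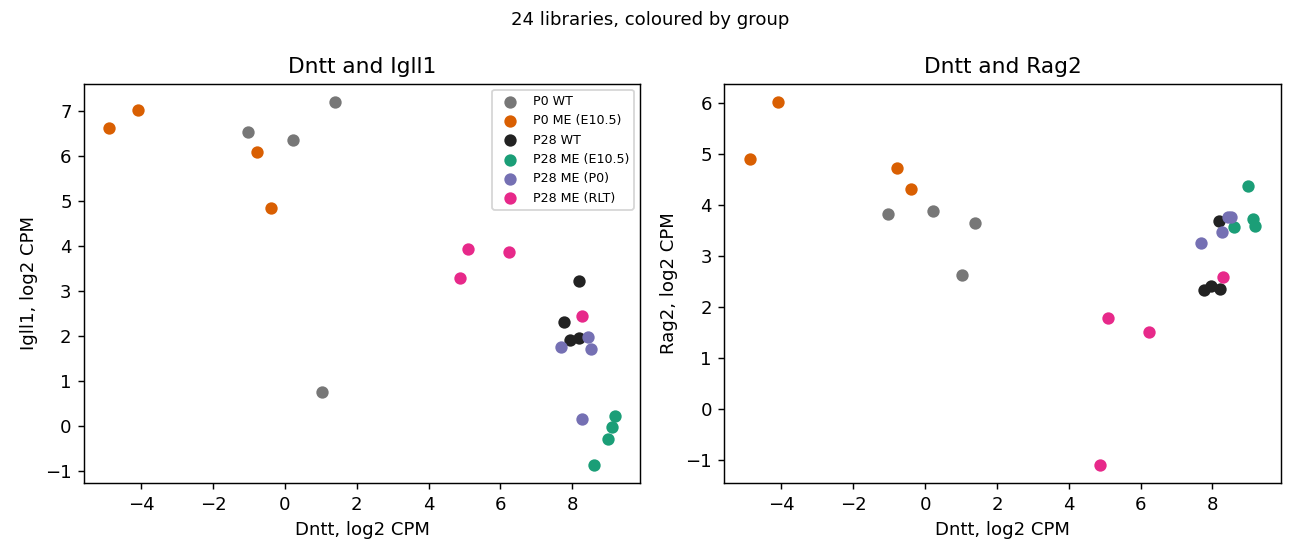
Dntt (horizontal axis, log2 CPM) against Igll1 and against Rag2 (vertical axes, log2 CPM), with 1 point for each of 24 libraries coloured by group. Marrow libraries lie at high Dntt, where Rag2 increases with Dntt (Pearson r = 0.87 over 16 libraries) and Igll1 decreases (r = -0.76).

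The genes most like Dntt over the 24 libraries, by Pearson correlation of log2 CPM among 11011 genes, were Nfic (0.959), P2ry14 (0.944), Mrgpre (0.938), Faah (0.936) and Slain1 (0.935). The libraries form 2 ages and the likeness largely follows them: in WT, Faah was at 10.3 ± 2.11 CPM in liver and 69.2 ± 19.2 CPM in marrow (SD, n = 4). By Spearman correlation none of these 5 was among the first 5. For Igll1 they were Vpreb3 (0.945), Tifa (0.927), Tgds (0.891), Msrb1 (0.889) and Rpl36al (0.888), and the same 5 came first by Spearman correlation. Vpreb3, a partner of immunoglobulin chains in pre-B cells, gave 0.724 CPM in P0 WT library 1 and 36.1, 37.8 and 49.8 CPM in P0 WT libraries 2 to 4, the layout of Igll1.

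Of 19 further B-lineage genes, 9 were lower and 2 higher in P28 WT marrow than in P0 WT liver, with a median log2 fold change of -2.95 against -0.07 over all genes, of which 7.68% were called. Spib, a transcription factor of B cells and plasmacytoid dendritic cells, fell by 6.61 (edgeR adjusted p = 5.08e-05), the coactivator gene Pou2af1 by 4.25 and Vpreb3 by 4.22. Pou2af1 was at 0.483 CPM in P0 WT library 1 and at 14.3 to 32.1 CPM in the other P0 WT libraries, so these values share the split between P0 libraries described above. With the fusion induced at E10.5, 11 were lower and 1 higher, with a median of -2.51 against -0.18 over all genes (18.2% called), Pou2af1 (-5.94) among the former. In P28 ME (E10.5) against P28 WT, 3 were higher, Spib by 3.58, Bank1 by 1.23 and the E2A gene Tcf3 by 0.98, and none was lower, a share near the 12.3% of all genes. Neither the P0 comparison nor P0 induction at P28 had a call in this list.

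In the RLT Vav Txp group 6 of the 19 were higher and 1 lower than in P28 WT, with a median log2 fold change of 1.37 against 0.01 over all genes, of which 4.12% were called. The inhibitory receptor gene Cd22 rose by 4.70 (edgeR adjusted p = 0.00198), Spib by 4.25, Pou2af1 by 4.19 and the heavy chain gene Ighm by 3.74 (edgeR adjusted p = 3.07e-07). Ighm gave 5509, 1095, 2724 and 4775 CPM in the RLT Vav Txp libraries and 327, 258, 262 and 206 CPM in P28 WT, so each of the former was above all of the latter. Against E10.5-induced marrow, where 17.9% of all genes were called, 7 were higher and 3 lower. The 7 markers of mature or later B cells, Cd22 among them, summed to 90.9 to 146 CPM in the RLT Vav Txp group and 155 to 213 CPM in P28 WT, and none of them was at 0 in every library. Of these 7, Cd22 and Ms4a1 were called higher than in P28 WT and Cd37 lower (-0.89, edgeR adjusted p = 0.00438), and the other 4 were not called. Ms4a1 and Cd37 were singled out after their values were seen, and Ms4a1 was at 44 to 159 counts per RLT Vav Txp library and 0 to 3 per P28 WT library.

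Of 14 genes of early lymphoid priming, 8 were lower and 0 higher in the RLT Vav Txp group than in P28 WT, where 4.12% of all genes were called, and 6 were not called. The median log2 fold change of the 14 was -0.64 against 0.01 over all genes. Flt3, the receptor of multipotent and lymphoid-primed progenitors, fell by 2.40 (edgeR adjusted p = 7.23e-05), from 1175 ± 59.3 to 222 ± 139 CPM (SD, n = 4). The chromatin organiser gene Satb1 fell by 2.06 (edgeR adjusted p = 0.00388), the chemokine receptor gene Ccr7 by 1.74 and Notch1 by 1.32. Against E10.5-induced marrow, where 17.9% of all genes were called, 9 were lower, led by Satb1 (-2.79) and Flt3 (-2.37), and 2 higher, Ly6d (5.18) and Ikzf3 (4.19). In E10.5-induced marrow against WT, where 12.3% of all genes were called, 3 were higher, among them Ikzf1, the Ikaros gene, by 0.85 and Mef2c by 0.52, and in newborn liver 1 was higher with the fusion, Mef2c by 0.77 (edgeR adjusted p = 0.0223). For P0 induction against WT 0 of 14 were called. Between the ages, 2 of 14 were higher and 1 lower in WT, and 2 higher and 2 lower with the fusion, medians 0.12 and 0.15, where 7.68% and 18.2% of all genes were called.

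In the interleukin-7 receptor pathway, 8 of 10 genes were higher and 1 lower in E10.5-induced marrow than in P0 ME liver, with a median log2 fold change of 0.66 against -0.18 over all genes (18.2% called), while Il7r itself was lower. Cish, a feedback inhibitor, rose by 1.24, the kinase gene Jak3 by 1.20, Stat5a by 1.05 and Stat5b by 0.95. In WT, where 7.68% of all genes were called, 3 were higher with age and tissue, Bcl2 by 0.81, Jak1 by 0.64 and Il2rg by 0.56, and Mcl1 fell by 0.57. E10.5 induction against WT in marrow gave 4 higher, Stat5b by 0.88, Jak3 by 0.77, Stat5a by 0.75 and Mcl1 by 0.37, and 0 lower (12.3% of all genes were called). The RLT Vav Txp group was lower than E10.5-induced marrow in 2, Jak3 (-1.17) and Stat5b (-0.84), a share near the 17.9% of all genes, and higher than WT in 1, Mcl1 (0.50). Among 11 genes of V(D)J end joining, the repair that seals the breaks made by RAG, E10.5-induced marrow was higher than WT in 2, Xrcc6 by 0.58 and Xrcc5 by 0.54, a share near the 12.3% of all genes. The RLT Vav Txp group was lower than E10.5-induced marrow in 3, Poll (-1.01), Xrcc6 (-0.69) and Xrcc5 (-0.47), where 17.9% of all genes were called. The nuclease gene Dclre1c (Artemis) was called in both comparisons of marrow with liver, at -0.88 in WT, where no other gene of the list was called, and -1.06 with the fusion, where Xrcc5 (0.88), Poll (0.64) and Xrcc6 (0.47) were higher. In neither list was a gene called for P0 induction at P28 against WT or in newborn liver.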

How the data were processed

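RNA-seq counts of 24 mouse libraries were used. The table of raw read counts per Ensembl gene was deposited by the authors; STAR 2.7.9a, Subread, featureCounts 2.0.3 and GRCm38 are named in the submitters' processing notes, and per the labels' protocols RNA came from a Qiagen RNeasy Plus kit and libraries from Clontech SMARTer chemistry. Of 55774 rows, 287 repeats of 168 IDs with identical counts were dropped.

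Genes passing filterByExpr (minimum count 10) were fitted with edgeR 4.0.16 (TMM, robust quasi-likelihood, 1 mean per group, 18 residual degrees of freedom, R 4.3.3) in 9 comparisons, after a test on simulated data. The replicates' separate origin rests on the design text. Log2 CPM used a prior count of 2. Intervals are 95% model intervals. Members and lists were chosen with earlier results of these data known. Dntt between ages, and Igll1 in each comparison with a fusion group at P28, were given without a test. All 9 members were named, with at most 4 called genes of largest change per list and comparison, Kit and Ly6a, and the 5 genes most like Dntt and Igll1 whose mean log2 CPM reached 1. Slamf1, Cd34 and Procr were named after their values were seen. Predicted models and receptor segments were left out of the likeness. Some listed genes that the naming rule picked enter the counts, but their own values are not reported here.

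Alternatives were RLE factors, DESeq2 1.42.0, limma 3.58.1, no filter, at least 10 counts in at least 12 libraries, only the groups compared, plain library totals, leave-one-out fits, and the replicate number as a block (or no block) in the 20 libraries that carry one. The split of the P0 libraries by number was added after seeing the data. Python 3.11.15, pandas 2.3.3 and matplotlib 3.10.9 were used for tables and plots, and promoters were RefSeq's, all 9 members having matched.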

Additional observations from a re-analysis of the deposited data

Results flagged for a closer look

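In 6 of 54 sets of 4 libraries (9 genes in 6 groups), the gap between the extreme library and its neighbour took up more of the group's CPM range than Dixon's 95% critical value, and chance alone gives about 1 in 20. Dntt in the RLT Vav Txp group had a ratio of 0.834, from library 1 at 310.2 CPM and the next at 75.8. Rag2 had a ratio of 0.968 in P28 WT, where library 1 was at 12.8 CPM and the next at 5.28, and 0.843 in E10.5-induced marrow, where library 1 was at 20.7 CPM and the next at 13.2. Il7r in P0 ME had a ratio of 0.855, from library 2 at 33.9 CPM and the next at 20.3. Pax5 had a ratio of 0.838 in P28 WT (0.0773 CPM in library 4 and 0.0125 in the next) and 0.856 in E10.5-induced marrow (0.595 CPM in library 4 and 0.0857 in the next), at 0 to 26 counts. The cause of these values was not tested.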

How the results depend on the processing

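Depth limits Pax5 at P28 (0 to 51 counts) and Dntt at P0 (0 to 156 counts). Correlations of same-numbered libraries ran from -0.13 to 0.32, and no pair of groups had all 4 above 0.1. The 0.32 was between the P0 WT and P0 ME libraries numbered 1, which were both low in neutrophil, erythroid and macrophage RNA. Differently numbered libraries were not correlated, so these values cannot settle whether the numbers pair samples. In the 20 numbered libraries, members were called with and without the replicate block. The numbers were 0 and 1 for P0 ME against WT, 1 and 0 for P28 ME (E10.5) against WT and 1 and 1 for P28 ME (P0) against WT. Between ages they were 7 and 7 for WT, Igll1 counted, and 7 and 7 for ME without Dntt and Igll1. For P0 against E10.5 induction and for the interaction they were 0 and 0. DESeq2 called 1, 1, 2 and 1 members in P0 ME against WT and in E10.5-induced, P0-induced and RLT Vav Txp marrow against WT. Limma called 2, 2 and 1 in the marrow comparisons with WT in that order, 2 for P0 against E10.5 induction and 3 for WT between ages. A fit of only the groups compared gave 3, 1 and 1 in the marrow comparisons with WT, 3 (2 without Igll1) for P0 against E10.5 induction and 2 for WT between ages. RLT Vav Txp against E10.5-induced marrow gave 3 without a filter and 3 to 6 without 1 library, counting the untested Igll1, which is 1 of each, and against WT 0 to 1 without 1 library. With the P0 libraries numbered 1 only, 3 were called in P0 ME against WT, 1 in WT between ages and 3 in the interaction.

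Some values changed sign, and not all of them were near 0. Igll1 in P0 ME against WT (-0.00) was 0.21 with the replicate block, 0.01 with DESeq2, 0.01 with RLE factors, 1.00 with limma, 0.00 with only the groups compared, 0.10 with plain totals and 4.11 with the libraries numbered 1, and ran from -0.45 to 0.40 without 1 library. With the libraries numbered 1, Il7r in that comparison was -0.31. In WT between ages, Rag2, Igll1, Vpreb1, Ebf1 and Cd79a were then 0.25, 1.76, 1.92, 0.32 and 1.65. With all libraries these 5 were -0.75, -3.90, -3.07, -3.89 and -3.76. Rag1, Il7r and Pax5 in the interaction were -0.93, 0.17 and -2.68 with the libraries numbered 1. With all libraries they were 0.98, -0.65 and 1.75. Pax5 in the interaction was -1.01 with limma and -0.46 to 3.52 without 1 library. Vpreb1 in P0 ME against WT was -0.01 with the libraries numbered 2 to 4 and -0.29 to 0.49 without 1 library. Rag1 in RLT Vav Txp against E10.5-induced marrow was 0.01 under the stricter filter and -0.83 to 0.21 without 1 library, and Pax5 there was -1.08 to 2.28. Other values that changed sign without 1 library were Il7r in E10.5-induced (-0.38 to 0.19) and P0-induced marrow against WT (-0.13 to 0.45), Ebf1 in P0-induced marrow against WT (-0.12 to 0.59), Vpreb1 in RLT Vav Txp against WT (-0.05 to 0.50) and Rag1 in P0 against E10.5 induction (-0.01 to 0.46). Of all values recomputed, 1411 were counted as unchanged, 42 lost and 40 gained a call, 42 changed sign and 2 moved. For tested values, unchanged means the same direction and side of the threshold. The unchanged also include untested fold changes, mean CPM and gene likeness, which have no call. The cause of the changes was not tested.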
